A study of Mus musculus with 12 samples.

Results

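The Gadd45 genes, the Polo-like kinase genes Plk2 and Plk3, the antiproliferative gene Btg2 and the immediate-early transcription factor genes Fos, Jun, Atf3 and Egr1 were followed across 4 oocyte genotypes. These 10 genes were taken by symbol from the array's gene annotation, and all 10 were found among the 21677 genes measured, each on a single probe set. The choice was made with results in hand, since Gadd45a, Gadd45b and Plk2 had been seen to be higher in oocytes lacking both Polycomb ligases. The values of these genes in the double mutant are therefore a description. No p-value is given for them, and where the number past a threshold is counted, nothing is supported by it. Tests are read for the single mutants and for genes outside these 10. The lists of those other genes were also chosen with earlier results of these data known. Most genes named from them were picked by adjusted p in the double mutant against control. Their p-values in that contrast are therefore not independent of the choice.

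Cells exposed to growth factors, DNA damage or other stress switch on a set of genes within minutes, without needing new protein synthesis. Fos, Jun and Atf3 encode basic leucine zipper proteins that pair in the AP-1 and ATF families, and Egr1 encodes a zinc finger factor induced through serum response elements. Gadd45 proteins are small acidic proteins that bind the kinase Map3k4, the replication clamp Pcna and the mitotic kinase Cdk1, and they have been linked to growth arrest and to active DNA demethylation. Plk2 and Plk3 are Polo-like kinases induced by stress and mitogens, unlike the mitotic kinase Plk1. Btg2 is a p53-inducible protein that recruits the CCR4-NOT deadenylase to mRNA. A fully grown oocyte is close to transcriptional silence, so most of its mRNA was made during growth.

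Fully grown germinal vesicle oocytes, arrested in the first meiotic prophase, were profiled on whole-transcript arrays, 3 arrays per genotype and 50 oocytes per RNA sample. Oocytes were pooled from several females of a mixed 129/Sv and C57BL/6J background, aged 5 to 10 weeks. The oocytes were collected 46 h after 5 U of PMSG (pregnant mare serum gonadotropin) into medium with 2.5 μM milrinone, which holds meiotic arrest. All 4 genotypes carried the floxed Rnf2 allele on both chromosomes. The control was Ring1+/+Rnf2F/F, the Ring1 mutant Ring1-/-Rnf2F/F, the Rnf2 mutant Ring1+/+Rnf2F/FZp3-cre and the double mutant Ring1-/-Rnf2F/FZp3-cre. Ring1 and Rnf2 encode the ubiquitin ligases of Polycomb repressive complex 1. The Ring1 null allele is present in every cell of the animal, whereas the Zp3 promoter drives Cre in growing oocytes, so the 2 losses differ in timing and in the cells they reach. The labels name the samples biological replicates, but do not say whether any female gave oocytes to several pools, so the p-values reflect how these pools vary.

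Values were deposited as log2 intensities. With no detection calls, the 95th percentile of 1055 olfactory receptor genes, 3.83 log2, served as a floor near which changes are compressed. Rnf2 itself read 8.23 to 8.53 log2 on the arrays of both genotypes without Cre and 5.60 to 6.04 on those of both genotypes with it. Ring1 read 3.50 to 3.99 on all 12 arrays, at the floor, so it does not check the Ring1 genotype. All 17 oocyte markers stood above the floor in every genotype.

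Promoter windows are shown for the 4 genes whose level was higher by at least 1 log2 in the double mutant, because these carry the main pattern. Each window runs from 250 bases before to 50 bases after the RefSeq start (GRCm38.p6), is written 5′ to 3′ on the gene's strand, and holds in capitals every match, on either strand, to the CRE core TGACGT, the octamer ATTTGCAT, the CCAAT box, the E-box CACGTG and the TATA box TATAAA.
Gadd45a, chr6:67037358-67037657, minus strand: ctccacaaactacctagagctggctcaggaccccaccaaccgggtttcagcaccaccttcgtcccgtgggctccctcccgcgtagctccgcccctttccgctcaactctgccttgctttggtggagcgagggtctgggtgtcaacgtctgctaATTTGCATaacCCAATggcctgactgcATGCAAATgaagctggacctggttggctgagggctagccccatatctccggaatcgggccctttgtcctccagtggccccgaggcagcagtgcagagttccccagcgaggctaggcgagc
Gadd45b, chr10:80929841-80930140, plus strand: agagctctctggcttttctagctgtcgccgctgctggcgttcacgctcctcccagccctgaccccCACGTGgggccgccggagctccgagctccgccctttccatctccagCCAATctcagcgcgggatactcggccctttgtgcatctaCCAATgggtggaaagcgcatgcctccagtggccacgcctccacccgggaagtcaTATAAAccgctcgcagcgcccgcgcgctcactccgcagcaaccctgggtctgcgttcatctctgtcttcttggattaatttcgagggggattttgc
Plk2, chr13:110394794-110395093, plus strand: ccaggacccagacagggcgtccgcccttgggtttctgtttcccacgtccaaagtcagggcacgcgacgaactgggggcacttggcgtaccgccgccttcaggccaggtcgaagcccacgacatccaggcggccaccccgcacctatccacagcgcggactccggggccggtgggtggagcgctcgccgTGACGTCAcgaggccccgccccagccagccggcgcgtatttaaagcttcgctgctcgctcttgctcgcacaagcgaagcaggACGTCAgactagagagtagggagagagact
Plk3, chr4:117133914-117134213, minus strand: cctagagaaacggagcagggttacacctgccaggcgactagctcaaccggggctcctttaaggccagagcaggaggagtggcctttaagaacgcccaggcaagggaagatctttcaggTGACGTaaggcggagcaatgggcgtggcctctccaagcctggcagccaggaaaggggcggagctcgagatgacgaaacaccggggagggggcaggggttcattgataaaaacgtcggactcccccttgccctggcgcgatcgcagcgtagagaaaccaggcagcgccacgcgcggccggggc

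These windows do not share one motif. Gadd45a held 2 octamers, which start 97 and 70 bases before the transcription start, on either side of a CCAAT box. Gadd45b held 2 CCAAT boxes, an E-box and a TATA box. Plk2 held the palindrome in which TGACGT and its reverse complement overlap, 62 bases before the start, and a further CRE core after the start. Plk3 held 1 CRE core, 132 bases before the start. The CRE core occurred in 5 of the 9 members with a window (Plk2, Plk3, Btg2, Fos and Atf3), against 7.51% of 32851 RefSeq windows of the same length. The octamer occurred in 2 (Gadd45a and Gadd45g), against 1.74%, and the CCAAT box in 6, against 37.4%. The E-box occurred in 2 (7.15% of all windows), the TATA box in 3 (13.6%) and the Egr motif GCGNGGGCG in 2 (5.55%). The AP-1 motif TGANTCA (7.81%) had no match in these 9 windows. All motifs were searched on both strands, and they were chosen with the sequences in view. A match is a description of letters only. The CRE core, the E-box and the Egr motif contain CpG, in which these 9 windows were rich. The shares over all windows were not matched for CpG content. No window was matched for Egr1.

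The 9 windows were rich in CpG, the dinucleotide whose clusters mark the promoters to which Polycomb complexes bind in many cell types. They held 14 to 32 CpG, with a median of 22, against a median of 7 over all windows, and all 9 lay above that median. Gadd45a had the fewest (14, the 63.7th percentile of all windows) and Btg2 the most (32, the 90.5th percentile). Plk2 had 31, Gadd45b 24 and Plk3 22. Jun had 15, Fos 20 and Atf3 27. Because these last genes lay near or below the floor, where differences are compressed, CpG count cannot be set against the differences in the double mutant. A relation between them was not tested.

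**Figure D1:**
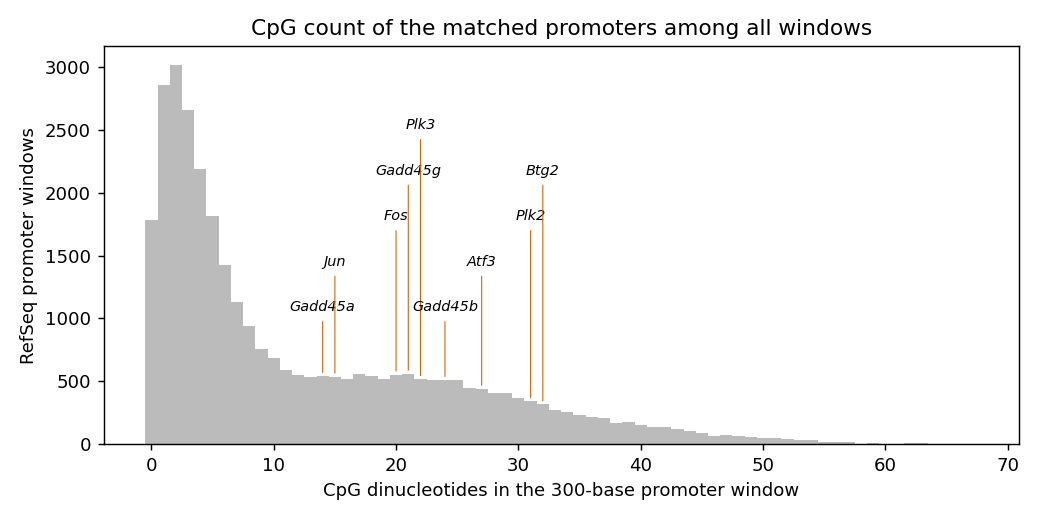
CpG dinucleotides per 300-base promoter window on the horizontal axis and number of RefSeq windows on the vertical axis, with the 9 matched genes marked by lines. The marked genes span 14 to 32 CpG, above the overall median of 7.

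Gadd45a and Gadd45b were higher than control in the double mutant but in neither single mutant, while Gadd45g stayed close to the floor. Gadd45a read 5.82, 5.72 and 5.95 log2 in control, 5.33, 5.53 and 5.58 in the Ring1 mutant, 5.73, 5.67 and 5.44 in the Rnf2 mutant, and 7.32, 7.41 and 7.29 in the double mutant. The lowest double-mutant array stood 1.34 log2 above the highest of the 9 others, and the level was 2.85-fold control (difference 1.51 ± 0.09 log2, SE, n = 3). Gadd45b, a gene induced early by transforming growth factor beta and by NF-κB, read 6.12, 6.00 and 6.37 log2 in control, 6.00, 5.97 and 6.24 in the Ring1 mutant, 6.04, 6.21 and 6.00 in the Rnf2 mutant, and 8.46, 8.34 and 7.99 in the double mutant. Its double-mutant arrays were again clear of all others, by 1.62 log2, with a level 4.30-fold control (2.1 ± 0.13 log2, SE, n = 3). The double-mutant array at 7.99 was the lowest of that group, and the group's SD of 0.24 log2 was the second largest of any group of these 10 genes, after Fos.

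Gadd45g, which acts in gonadal sex determination in the mouse embryo, read 3.57, 3.63 and 3.63 log2 in control, 3.53, 3.81 and 3.75 in the Ring1 mutant, 3.72, 3.78 and 3.85 in the Rnf2 mutant and 4.22, 3.88 and 4.19 in the double mutant. Only 4 of its 12 arrays, the 3 double mutants and 1 Rnf2 mutant, lay above the floor. The double-mutant arrays were above all others, but by only 0.03 log2, and the difference from control was 0.49 ± 0.10 log2 (SE, n = 3). Because arrays hold pooled RNA, a change in a few oocytes and a smaller change in all of them cannot be told apart, here or below.

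Both stress-induced Polo-like kinases stood far above the other genotypes in the double mutant. Plk2, which phosphorylates centrosomal and synaptic proteins, read 4.42, 4.41 and 4.22 log2 in control, 4.45, 4.61 and 4.32 in the Ring1 mutant, 4.32, 4.15 and 4.36 in the Rnf2 mutant, and 6.54, 6.63 and 6.65 in the double mutant. It was the largest difference among the 10 genes, 4.78-fold control (2.26 ± 0.09 log2, SE, n = 3), with a gap of 1.93 log2 between the lowest double-mutant array and the highest other. Plk3, a kinase activated by DNA damage and hypoxia, read 4.46, 4.14 and 4.28 log2 in control, 4.19, 4.33 and 4.24 in the Ring1 mutant, 4.07, 4.14 and 4.27 in the Rnf2 mutant, and 6.39, 6.23 and 6.22 in the double mutant. Its level was 3.96-fold control (1.99 ± 0.09 log2, SE, n = 3), and its groups were separated by 1.76 log2. Plk3 was not among the genes that prompted the choice of this set, but its value comes from the same arrays and the same contrast.

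Btg2 was higher by a smaller amount. It read 5.51, 5.53 and 5.58 log2 in control, 5.60, 5.29 and 5.21 in the Ring1 mutant, 5.57, 5.75 and 5.66 in the Rnf2 mutant, and 6.24, 6.38 and 6.19 in the double mutant. The double-mutant arrays were above all others by 0.43 log2, at 1.65-fold control (0.73 ± 0.10 log2, SE, n = 3).

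Among the immediate-early transcription factors only Egr1 was clearly above the floor on all arrays. It read 4.69, 4.53 and 4.68 log2 in control, 4.38, 4.30 and 4.48 in the Ring1 mutant, 4.57, 4.74 and 4.47 in the Rnf2 mutant, and 5.25, 5.03 and 5.28 in the double mutant. The double-mutant level was 1.47-fold control (0.55 ± 0.09 log2, SE, n = 3), and the groups did not overlap, with a gap of 0.30 log2. Fos read 3.14, 3.25 and 3.00 log2 in control, 3.13, 2.88 and 3.22 in the Ring1 mutant, 2.99, 3.13 and 3.01 in the Rnf2 mutant, and 3.47, 3.28 and 3.89 in the double mutant. A single double-mutant array of Fos passed the floor, the groups were 0.02 log2 apart, and the difference of 0.41 ± 0.14 log2 (SE, n = 3) ranged from 0.24 to 0.55 when arrays were left out one at a time.

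Jun and Atf3 lay below the floor on every array. Jun ranged from 2.60 to 3.08 log2 over the 9 arrays with at least one ligase and read 2.94, 2.90 and 3.13 in the double mutant, which overlapped the others. Atf3, a repressor and activator induced in the integrated stress response, ranged from 3.06 to 3.50 log2 over the same 9 arrays and read 3.80, 3.44 and 3.49 in the double mutant, again overlapping. Their differences from control were 0.20 log2 (95% interval -0.05 to 0.45) and 0.25 log2 (-0.04 to 0.54). For genes this dim the arrays do not separate a low transcript level from none.

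**Figure D2:**
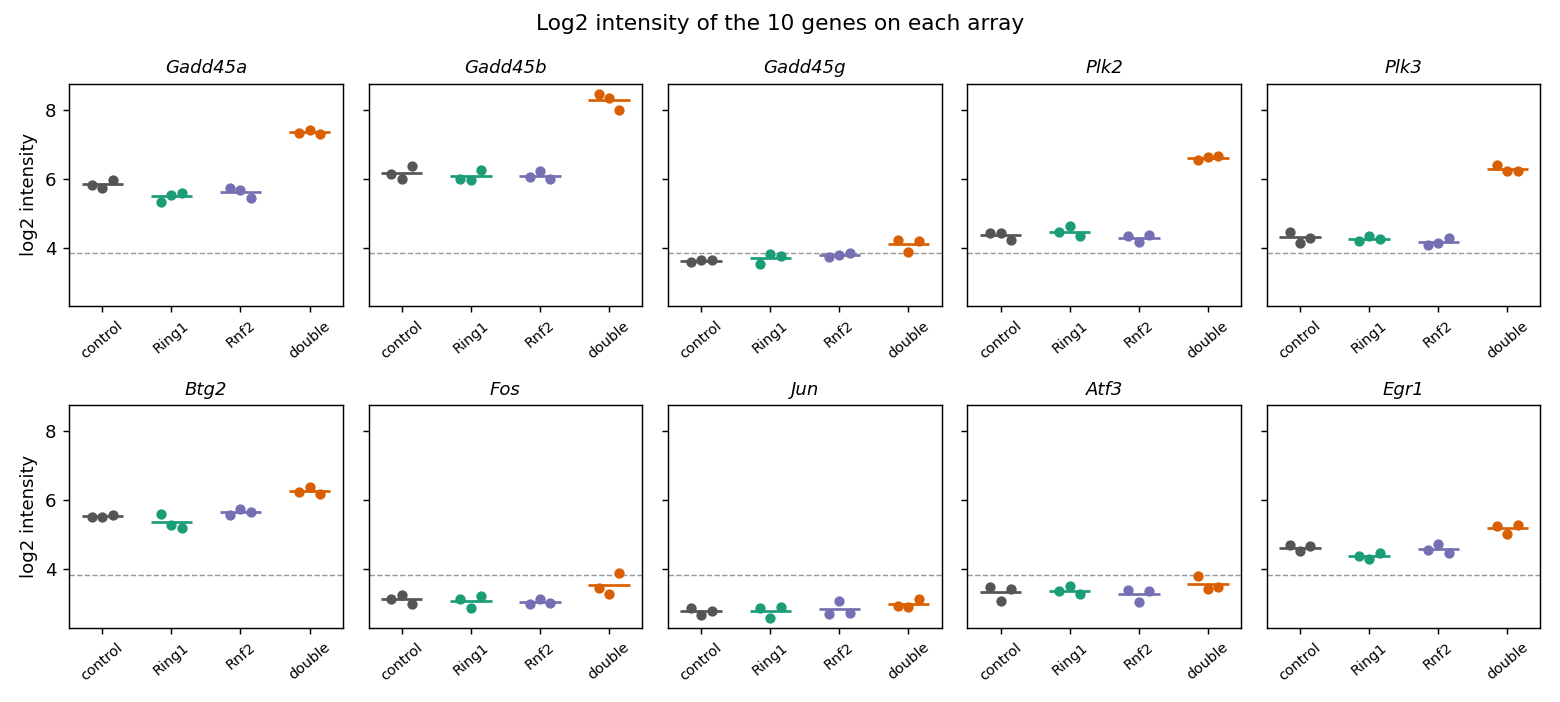
Log2 intensity of each of the 10 genes on the 12 arrays, grouped by genotype; points are arrays, short lines are group means, and the dashed line is the olfactory receptor floor (3.83 log2). Gadd45a, Gadd45b, Plk2 and Plk3 stand at least 1.34 log2 apart from all other genotypes in the double mutant, whereas Jun and Atf3 overlap below the floor.

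As a count, 8 of the 10 genes passed the threshold of an adjusted p below 0.05 upward in the double mutant against control and none passed downward (limma), in a comparison where 31.9% of all genes were called (14.4% of all genes upward and 17.5% downward). The other 2 were Jun and Atf3. The 3 double-mutant arrays were above all 9 others for the same 8 genes, as they were for 13.4% of all genes, and 4 of the 10 were higher by at least 1 log2, against 3.05% of all genes. The median difference of the 10 was 0.64 log2, against -0.04 over all genes. Of all calls 45.1% were upward, and 64.7% were with arrays centred on their most abundant 25% of genes. These figures describe a set chosen on this contrast and are read no further. The contrasts of the double mutant with each single mutant share the double-mutant arrays. The same 8 genes were past the threshold upward in both, as a description, and in single fits that left out 1 array or the other genotypes Fos or Gadd45g was not. Against the Ring1 mutant 31.6% of all genes were called (14.9% upward and 16.6% downward), and against the Rnf2 mutant 30.2% were (13.9% upward and 16.3% downward). Against the Ring1 mutant, Gadd45a was higher by 1.86 ± 0.09 log2, Gadd45b by 2.19 ± 0.13, Plk2 by 2.15 ± 0.09 and Plk3 by 2.03 ± 0.09. Against the Rnf2 mutant, the same genes were higher by 1.73 ± 0.09, 2.18 ± 0.13, 2.33 ± 0.09 and 2.12 ± 0.09 log2 (SE, n = 3).

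The single mutants show what losing one ligase does, and there none of the 10 genes was called. In the Ring1 mutant against control none of the 10 was called by limma, where 0.78% of all genes were called (0.304% upward and 0.475% downward), and 2 had an unadjusted p below 0.05. These were Gadd45a, at -0.35 ± 0.09 log2 (limma, adjusted p = 0.16), and Egr1, at -0.25 ± 0.09 (limma, adjusted p = 0.34). The 3 Ring1-mutant arrays lay below the 3 control arrays for both, a separation in one direction or the other that 16.6% of all genes showed. In the Rnf2 mutant against control none was called, where 0.138% of all genes were (0.0969% upward and 0.0415% downward), and 1 had an unadjusted p below 0.05, Gadd45a at -0.22 ± 0.09 log2 with overlapping arrays (limma, adjusted p = 0.72). Gadd45g was the 1 gene there whose arrays did not overlap, at 0.18 ± 0.10 log2 (limma, adjusted p = 0.82), as for 12.2% of all genes. Both mean differences of Gadd45a rest on the same 3 control arrays. Fits with an intensity trend and robust variance also called none of the 10 in either mutant.

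For the 4 genes with large values in the double mutant, the intervals of the single mutants were narrow beside those values. In the Ring1 mutant the 95% interval reached at most 0.19 log2 for Gadd45b, 0.30 for Plk2, 0.15 for Plk3 and -0.14 for Gadd45a. In the Rnf2 mutant it reached at most 0.20, 0.12, 0.06 and -0.01 log2 in the same order. Over all 10 genes the intervals lay between -0.55 and 0.34 log2 in the Ring1 mutant and between -0.42 and 0.39 in the Rnf2 mutant. The Rnf2 mutant set against the Ring1 mutant, which uses none of the arrays that prompted the choice, gave differences from -0.18 log2 (Plk2) to 0.30 (Btg2). None of the 10 was called there by limma or with a trend and robust variance, where 0.955% of all genes were called by limma (0.641% upward and 0.314% downward). Btg2 (limma, adjusted p = 0.23) and Egr1 (0.21 ± 0.09 log2; limma, adjusted p = 0.42) had an unadjusted p below 0.05, and both overlapped between the groups.

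**Figure D3:**
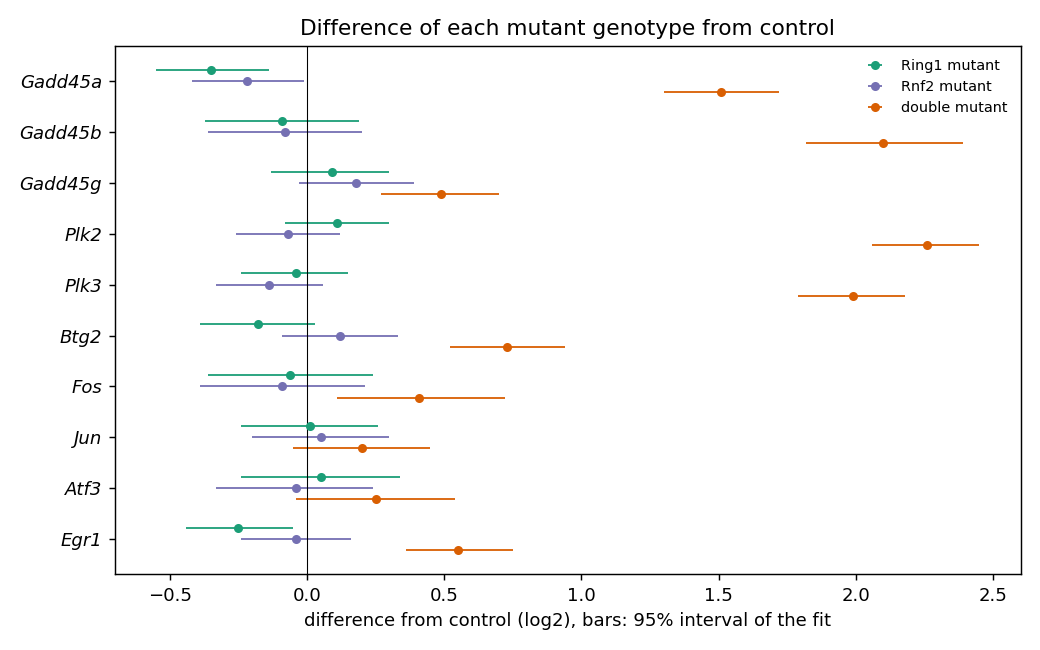
Difference of each mutant genotype from control on the log2 scale for the 10 genes, with 95% intervals of the fit (n = 3 arrays per genotype). Single-mutant values lie between -0.35 and 0.18 log2, and those of the double mutant reach 2.26 log2 for Plk2.

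Each gene's order of genotypes can be read from its means. For Gadd45a the order was the double mutant (7.34 ± 0.07 log2, SD), control (5.83 ± 0.12), the Rnf2 mutant (5.61 ± 0.16) and the Ring1 mutant (5.48 ± 0.13), where control and the Rnf2 mutant overlapped, as did the last 2. For Gadd45b the double mutant (8.27 ± 0.24) was followed by control (6.16 ± 0.19), the Rnf2 mutant (6.08 ± 0.11) and the Ring1 mutant (6.07 ± 0.15), and these 3 did not differ beyond their spread. For Plk2 the double mutant (6.61 ± 0.06) was followed by the Ring1 mutant (4.46 ± 0.14), control (4.35 ± 0.11) and the Rnf2 mutant (4.28 ± 0.11), with overlapping neighbours below the double mutant. For Plk3 the order was the double mutant (6.28 ± 0.10), control (4.30 ± 0.16), the Ring1 mutant (4.25 ± 0.07) and the Rnf2 mutant (4.16 ± 0.10), with the same overlap.

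The double mutant exceeded what the 2 single losses add up to. This excess is the Rnf2-loss difference in Ring1-null oocytes minus that in oocytes with Ring1, and it includes the double-mutant arrays that chose the set, so its values and the count past the threshold are a description. It was 2.27 ± 0.18 log2 for Gadd45b, 2.22 ± 0.12 for Plk2, 2.17 ± 0.13 for Plk3 and 2.07 ± 0.13 for Gadd45a (SE, n = 3 per genotype). Egr1 had an excess of 0.84 ± 0.13 log2 and Btg2 of 0.78 ± 0.14. Fos had 0.56 log2 (95% interval 0.13 to 0.99), Gadd45g 0.22 (95% interval -0.07 to 0.52), Jun 0.15 (-0.21 to 0.50) and Atf3 0.24 (-0.17 to 0.65). Over all genes, 19.0% were called for this excess in limma (9.99% upward and 9.02% downward). Of the 10, 6 were past the threshold, all upward, and nothing is read from that count. With Fos there were 7 after quantile normalization, with arrays centred on abundant genes and with a trend and robust variance.

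Many genes followed the same profile over the 12 arrays. Among 885 genes above the floor whose genotype means spanned at least 1 log2, the closest to Gadd45a by Pearson correlation were Pcsk6 (r = 0.9945), Lap3 (0.9914) and Lrig3 (0.9911). The closest to Gadd45b were Rras (r = 0.9954), Epas1 (0.9907) and Ago1 (0.9906), and to Plk2 Slc4a4 (0.9957) and Zfp354b (0.9949). The gene at rank 100 still reached r = 0.971, 0.98 and 0.982, respectively, so these values are shared widely. The 12 points share their arrays and the step in the double mutant on which the set was chosen. Within the set, Plk3 was at rank 22 for Plk2 (r = 0.9904), 36 for Gadd45b (0.985) and 82 for Gadd45a (0.9735). Gadd45b was at rank 28 for Gadd45a (r = 0.9824), and Gadd45a at rank 64 for Gadd45b. Plk2 was at rank 213 for Gadd45a (r = 0.9612) and 219 for Gadd45b (0.9692), and for Plk2 these genes were at ranks 295 and 243.

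Other immediate-early genes were examined as a list of 35, all measured, which included both transcription factors and signalling feedback genes. Like the lists below, it was chosen with earlier results of these data known. In the double mutant 12 rose and 1 fell (37.1% called, against 31.9% of all genes), and the median difference was 0.18 log2, against -0.04. The share of 31.9% includes genes below the floor. With those left out of the fit, 6543 of 12744 genes were called. For lists of mostly brighter genes, here and below, 31.9% is therefore a low yardstick. Of this list, 23 genes had a mean above the floor. Ptgs2, the inducible prostaglandin synthase, rose by 4.13 ± 0.12 log2 (limma, adjusted p = 3.6e-10), Dusp6, a phosphatase that inactivates ERK kinases, by 2.80 ± 0.15 (limma, adjusted p = 4e-08), Klf4 by 2.06 ± 0.11 and the orphan nuclear receptor gene Nr4a2 by 1.74 ± 0.12. The other 22 were not called. Among them, Ier2 differed by 0.12 ± 0.09 log2 (limma, adjusted p = 0.33), Nr4a1 by -0.12 ± 0.13 (0.55), Egr2 by 0.20 ± 0.14 (0.33) and Myc by -0.17 ± 0.11 (0.26), all 4 with control means below the floor and named after their values were seen. In the Rnf2 mutant Ptgs2 alone of this list was called, higher by 1.12 ± 0.12 log2 (limma, adjusted p = 0.0033).

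The AP-1 family beyond Fos, Jun and Atf3 moved little. Of 21 subunits and partners 4 rose and 1 fell (23.8% called, against 31.9% of all genes), with a median of 0.06 log2. Fosl2 rose by 0.55 ± 0.13 log2 (limma, adjusted p = 0.0055) from a control mean of 3.75, below the floor. Mafg rose by 0.28 ± 0.06 (limma, adjusted p = 0.0031) and Atf1 fell by 0.38 log2 (limma, adjusted p = 0.00096). Batf3 was the 1 gene of the family called in the Ring1 mutant, higher by 1.17 ± 0.10 (limma, adjusted p = 0.00019, named after its values were seen).

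Among Gadd45 partners and stress kinases, several kinase genes rose by small amounts. Of 23 measured genes 8 rose, 3 fell and 12 were not called (47.8% called, against 31.9%), with a median of 0.16 log2. Of the 23, 20 had a mean above the floor, and with dim genes left out of the fit 6543 of 12744 genes were called. Map3k1 rose by 0.61 ± 0.09 log2 (limma, adjusted p = 0.00021), Mapk13 by 0.52 ± 0.08 (0.0003), Map3k7 by 0.50 ± 0.08 (0.00035) and Mapk14 by 0.40 ± 0.06 (0.00028). Map3k7, the kinase activated by transforming growth factor beta, was also called in the Ring1 mutant, higher by 0.43 ± 0.08 (limma, adjusted p = 0.028). The direct partner Map3k4 fell by 0.25 log2 (limma, adjusted p = 0.032), a call lost with arrays centred on abundant genes (0.18). Pcna, Cdk1 and Ccnb1 differed by 0.14 ± 0.06, 0.01 ± 0.07 and 0.04 ± 0.06 without a call. Cdkn1a, the classical p53-induced inhibitor that also binds Gadd45 proteins, read 3.55 log2 in control and 3.51 in the double mutant, both below the floor. These 5 were named after their values were seen.

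Genes of the integrated stress response were called in both directions. Of 21 genes 4 rose and 4 fell (38.1% called, against 31.9%), with a median of 0.02 log2. A mean above the floor was seen for 17 of the 21. With arrays centred on their most abundant genes 7 rose and 3 fell. Asns, the asparagine synthetase gene, rose by 2.18 ± 0.08 log2 (limma, adjusted p = 2.1e-09) and Sesn2 by 0.75 ± 0.10 (limma, adjusted p = 0.00014). Atf4, the transcription factor that activates both in other cells, fell by 0.56 log2 (limma, adjusted p = 6.7e-05), and the kinase gene Eif2ak1 fell by 0.39 log2 (limma, adjusted p = 0.00029). Ppp1r15a, also called Gadd34, differed by 0.02 ± 0.09 log2 (limma, adjusted p = 0.89, named after its values were seen).

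Genes listed as upstream regulators of these 10 genes gave a balance that depended on the scaling. Of 25 measured, 3 rose and 5 fell (32.0% called, against 31.9%), with a median of -0.05 log2, but 7 rose and 4 fell after quantile normalization, and 8 rose and 2 fell when arrays were centred on their most abundant 25% of genes. Nfkb1 rose by 0.62 ± 0.09 log2 (limma, adjusted p = 0.00018) and Nab1, a corepressor of Egr proteins, by 0.47 ± 0.06 (7.3e-05). Elk3, a partner of serum response factor, fell by 0.80 log2 (limma, adjusted p = 8.4e-05) and Brca1 fell by 0.41 log2 (0.0002). Trp53 itself differed by -0.20 ± 0.08 log2 (limma, adjusted p = 0.069, named after its values were seen).

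Relatives of the kinases and of Btg2 did not follow them as a group. Of 7 other Polo-like kinase, BTG and TOB genes 2 rose and 2 fell (57.1% called, against 31.9%), with a median of -0.10 log2. A mean above the floor was seen for 6 of the 7. Tob1 rose by 0.72 ± 0.09 log2 (limma, adjusted p = 5.8e-05) and Btg1 by 0.57 ± 0.15 (0.013) with overlapping arrays. The mitotic kinase gene Plk1 fell by 0.23 log2 (limma, adjusted p = 0.011) and Btg4, an adaptor for maternal mRNA decay, fell by 0.20 log2 (0.02). Both calls were lost after quantile normalization (limma, adjusted p = 0.051 and 0.076) and with arrays centred on abundant genes (0.12 and 0.23).

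Heat shock and oxidative stress genes went both ways, with some large rises. Of 17 measured 6 rose and 4 fell (58.8% called, against 31.9%), with a median of -0.06 log2. A mean above the floor was seen for 15 of the 17, and with dim genes left out of the fit 6543 of 12744 genes were called. Gclc, which makes the glutathione precursor, rose by 1.70 ± 0.07 log2 (limma, adjusted p = 3.2e-09), the small heat shock protein gene Hspb1 by 2.17 ± 0.11 (3.4e-08), the haem oxygenase gene Hmox1 by 1.84 ± 0.15 (2e-06) and Hsf2 by 1.28 ± 0.14 (1.5e-05). Nqo1 and Txnrd1, oxidative stress genes like Hmox1, fell by 0.73 and 0.60 log2 (limma, adjusted p = 0.0014 and 1.8e-05), and were named after their values were seen.

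**Figure D4:**
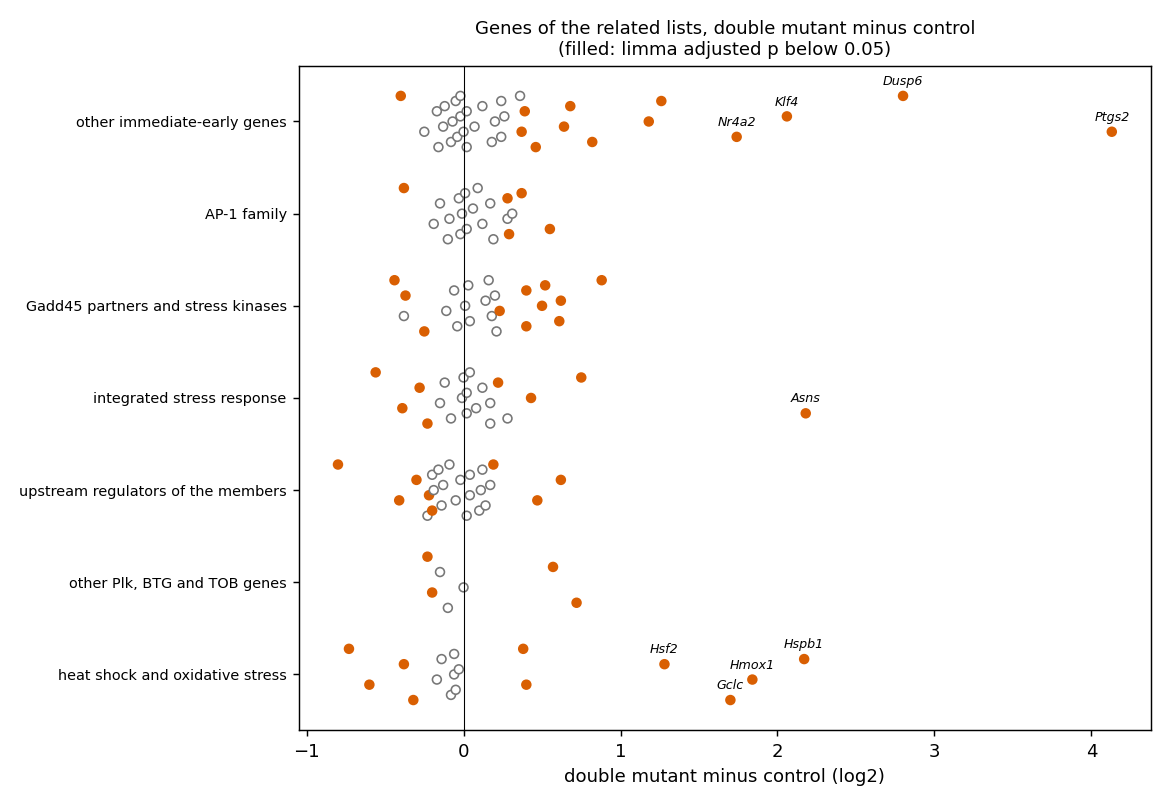
Double mutant minus control on the log2 scale for each gene of 7 related lists, one row per list, with genes called by limma at an adjusted p below 0.05 filled. Vertical scatter within a row has no meaning; most genes lie within 1 log2 of zero, and Ptgs2 (4.13) and Dusp6 (2.80) lie farthest out.

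Markers of other cells were read beside these values, since follicle cells and blood cells also express immediate-early genes. In the double mutant against control 31.9% of all genes were called (14.4% upward and 17.5% downward). Of 18 granulosa and cumulus markers 2 rose and 2 fell there (22.2% called), with a median of -0.17 log2. Their summed linear intensity was 856 to 1238 in control and 801 to 990 in the Ring1 mutant. It was 1059 to 1417 in the Rnf2 mutant and 825 to 1075 in the double mutant. Of the 18, 9 had a mean above the floor in control and in the Ring1 mutant, and 8 in the Rnf2 and double mutants. Fshr, Amh, Amhr2, Kitl, Has2, Ptx3, Tnfaip6 and Lhcgr were below it in every genotype. Cyp11a1 read 6.26 log2 in control, 7.38 in the Rnf2 mutant and 4.98 in the double mutant, Inha 6.50, 7.20 and 5.82, Inhba 6.22, 7.05 and 5.74, and Star 4.88, 5.69 and 3.81. In the Ring1 mutant the mean of each of these genes was also below control. Cyp11a1, Inha, Inhba and Star were named after their values were seen. None of the 18 was called in the Ring1 mutant or in the Rnf2 mutant against control. Against the Rnf2 mutant, 3 were higher and 7 lower in the double mutant (55.6% called, against 30.2% of all genes), among them Cyp11a1 at -2.40 ± 0.66 log2 (limma, adjusted p = 0.014). Against control, Cyp19a1 fell by 0.78 log2 and Kitl fell by 0.37 log2, while Nr5a2 rose by 0.38 and Wt1 by 0.35. Among 13 genes marking stroma, theca and endothelium, 3 rose and 2 fell against control (38.5% called, against 31.9% of all genes). The summed intensity was 514 to 525 in the double mutant against 653 to 685 in the other genotypes. Myh11 fell by 0.97 log2 and Pecam1 fell by 0.32 log2, while Lum and Dcn rose by 0.65 and 0.63 from below the floor. Of 10 blood and immune markers 2 rose, C1qb by 1.05 log2 and Cd68 by 0.34 (20.0% called, against 31.9%). The summed intensity was 259 to 282 in the double mutant against 154 to 184 elsewhere, with Ptprc, Adgre1, Csf1r and Lyz2 below the floor in every genotype. The call of Cd68 was lost after quantile normalization (limma, adjusted p = 0.071) and with arrays centred on their median (0.057). Of 17 oocyte markers 1 rose and 6 fell (41.2% called, against 31.9%), with Figla lower by -0.89 log2, Kit and Mos by -0.51 each and Tle6 by -0.28. Their summed intensity was 31309 to 32017 in the double mutant against 33327 to 34550. All 17 lay above the floor, and with dim genes left out of the fit 6543 of 12744 genes were called. For each marker given here as rising, falling or lower, the limma adjusted p was 0.025 or less. The part of these shifts in the values of the 10 genes was not tested.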

How the data were processed

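Per the labels' protocols, RNA from 50 oocytes per sample was converted to cDNA by whole-transcriptome amplification and hybridised to whole-transcript arrays. The authors deposited log2 intensities for 34760 probe sets on 12 arrays, with medians of 3.81 to 3.93. R 2.10.0 and affy are listed in the submitters' processing notes; how background was corrected and probes were summarized is not stated there or in the labels. In the deposited annotation 23496 probe sets carried a single gene, 1116 several, 10117 none and 31 were not listed there. Symbols were updated through RefSeq (GRCm38.p6). The probe set with the highest mean stood for each of the 21677 genes.

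All 12 arrays entered a linear model with a mean per genotype (limma 3.58.1 under R 4.3.3, lmFit and eBayes), with Benjamini-Hochberg adjustment over all genes within a comparison and a threshold of 0.05. The fit was run on simulated data in which few genes changed. The double mutant differs from that setting, so the run does not check the calls given here. The 10 genes and the other lists were chosen with earlier results of these data known. Named genes are the 10, Ring1 and Rnf2, up to 4 called genes per list with the smallest adjusted p in the double mutant against control, and the 3 genes closest to Gadd45a, Gadd45b and Plk2; 2 genes that this rule names are not reported here, and others are said to be named after their values were seen. The alternatives covered probe sets, dim genes, scaling, the variance model, the arrays in the fit, the replicate number as a block and leaving out each array. Promoter windows came from RefSeq.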

Additional observations from a re-analysis of the deposited data

Results flagged for a closer look

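For 19 genes named from the related lists, the Rnf2-loss effect differed between Ring1-null oocytes and oocytes with Ring1 by the interaction term of the limma fit (adjusted p below 0.05, 3 arrays per genotype). The values below are that difference on the log2 scale. The genes were named for their call in the double mutant against control, which shares arrays with the interaction, so a call here is not independent of that choice.

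Among immediate-early genes the values were 3.29 for Dusp6, 2.65 for Ptgs2, 1.95 for Nr4a2 and 1.70 for Klf4. Among heat shock and oxidative stress genes they were 2.33 for Hspb1, 1.63 for Gclc, 1.58 for Hsf2 and 1.34 for Hmox1. In the integrated stress response Asns had 1.80, Sesn2 0.50 and Atf4 -0.49. The stress kinases Map3k1, Mapk14 and Mapk13 had 0.83, 0.61 and 0.53. Nfkb1 had 1.11, Nab1 0.40 and Brca1 -0.32. Tob1 had 0.85 and Atf1 had -0.42.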

How the results depend on the processing

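In the double mutant against control, the differences of the 10 genes kept their sign wherever they were tested. They ranged from 2.22 to 2.36 log2 for Plk2 and from 0.37 to 0.51 for Fos over the other settings, and from 2.19 to 2.29 and from 0.24 to 0.55 with 1 array left out. The number of the 10 called was 8, where 31.9% of all genes were called, and 6 to 8 under 8 alternatives. The 6 arose because 4 dim genes, 2 of them called, were not tested under the filter. Under that filter 6543 of 12744 genes were called. These counts describe a set chosen on this contrast, and nothing is supported by them. Leaving out arrays gave 7 to 8 against control and against the Ring1 mutant, 6 to 8 against the Rnf2 mutant and 6 to 7 for the interaction. The call of Fos against control was lost without control replicate 1 or 3, without double-mutant replicate 1 or 3, and with only the groups compared in the fit. Against the Rnf2 mutant the call of Gadd45g was lost with only the groups compared and without Rnf2-mutant replicate 1 or 2 or double-mutant replicate 1 or 3, and that of Fos without Rnf2-mutant replicate 1 or double-mutant replicate 3. Against the Ring1 mutant the call of Fos was lost with only the groups compared and without Ring1-mutant replicate 2 or double-mutant replicate 3. For the interaction Fos was gained without double-mutant replicate 2. In the single-mutant comparisons 0 were called under every alternative. The replicate number as a block left 8 called against control, where 6762 of 21677 genes were called. Same-numbered arrays correlated between -0.163 and 0.206 in their deviations from the group means, above 0.1 in 4 of 18 pairs. Arrays with different numbers were not compared, so these values do not settle whether the numbers pair the arrays. Centring on the most abundant 25% of genes shifted the median of all genes in the double mutant by 0.10 log2 and the upward share of calls from 45.1% to 64.7%. Calls of the BTG list fell to 2 rises and 0 falls there and after quantile normalization. The list of regulators had 8 calls, and 5 with only the groups compared in the fit. Genes near the floor of 3.83 log2 (Gadd45g, Fos, Jun and Atf3) have compressed differences.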
